A study of Mus musculus with 6 samples.

Results

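Genes of natural killer (NK) cells and of cell killing, 10 of the 18460 genes listed in at least 1 tumor, were followed in 6 mouse breast tumors. They were taken by name, as NK cell receptors (*Ncr1*, *Klrk1*, *Klrb1c* and *Klrd1*), genes of the killing machinery (*Prf1*, *Gzma*, *Gzmb*, *Nkg7* and *Fasl*) and the transcription factor *Eomes*, and all 10 were found in the data. The genes were sparsely expressed in both groups. No tumor held more than 43 reads of any of them, none was called between the groups by edgeR's quasi-likelihood test, and for none did the 3 test tumors and the 3 control tumors separate. *Gzma* had most of its reads in test tumors and *Prf1* most in control tumors, with unadjusted p values above 0.05 in that test on all 6 tumors and below 0.05 in some alternatives.

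The control tumors came from 3 PyMTtg;Rag1KO mice and the test tumors from 3 K14-TSLPtg;PyMTtg;Rag1KO mice, all on the BALB/c background and all injected at 4 wk of age with CD4+ T cells. The PyMT oncogene drives spontaneous breast tumors from a mammary promoter, and the K14 promoter drives thymic stromal lymphopoietin (TSLP) in keratinocytes. Tumors were collected at 18 to 20 wk, each from a separate mouse, and each was sequenced as bulk RNA. The donor CD4+ T cells had been sorted to exclude cells with the NK cell proteins NKp46 and CD49b. Loss of Rag1 leaves the hosts without T or B cells of their own, whereas NK cells do not need Rag1 and remain. The tumors were compared to learn how TSLP-stimulated CD4+ T cells restrain the cancer, and the killing genes bear on the part of that question that asks about cytotoxicity.

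NK cells recognize stressed or transformed cells through a balance of activating and inhibitory surface receptors and kill them by releasing granules. In the granule, perforin opens the way through the membrane of the target cell and granzymes, which are serine proteases, start cell death from within. Cytotoxic T cells use the same granules, and Fas ligand offers another route to death through a receptor on the target. In bulk tumor RNA, fewer cells of a type and less RNA per cell cannot be told apart.

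Total expected counts, the estimated reads per gene summed over genes, ran from 8373390 to 9449565 per tumor, so that 3 counts, the floor used here, correspond to 0.318 to 0.366 CPM (counts scaled to the same library size). This floor and the counting intervals below cover counting error only. Values of single tumors are given in the order of replicates 1, 2 and 3. *Tslp* had 2, 2 and 3 counts in the control tumors and 12, 7 and 2 in the test tumors. Test replicate 3 thus stood at the control level for the gene that the transgene carries, which is driven in keratinocytes. *Rag1*, disrupted in both groups, had 4 to 27 counts in control and 6 to 12 counts in test tumors; whether these reads lie in the disrupted part is not known from gene totals. *Ptprc*, the CD45 gene of all leukocytes, had 382, 164 and 320 counts in the control tumors and 99, 138 and 283 in the test tumors, and 7 of 8 pan-leukocyte genes were lower on average in test tumors (median log2 fold change -0.42, with 0 of the 8 called). The 7 genes of luminal epithelium summed to 5850 to 5880 CPM in test tumors and 2100 to 4500 CPM in control tumors. Skeletal muscle genes summed to 1020 CPM in test replicate 1 and to 6.38 to 205 CPM in the other tumors. Lymph node stroma genes summed to 190 CPM in test replicate 2 and to 1.85 to 51.1 CPM in the other tumors. Of the 190 CPM, *Glycam1* gave 156 CPM and *Ccl21a* 4.15 CPM, while *Ccl19* and *Madcam1* had no reads in that tumor. Elsewhere *Glycam1* reached at most 0.955 CPM and *Ccl21a* at most 1.41 CPM. Adipocyte genes summed to 249 CPM in test replicate 1 and to 12.9 to 68.7 CPM in the other tumors. The part of leukocyte, epithelial, muscle, lymph node and fat content in the levels of the 10 genes was not tested.

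The granzyme genes are shown first by sequence, because related granzymes share stretches that a short read cannot assign. The coding bases that begin at the glycine, aspartate and serine of the active site are given for 60 bases, from the last of 5 exons in each gene, with capitals at bases that differ from *Gzmb*. All are on the minus strand of GRCm38 and are printed 5′ to 3′ as transcribed. *Gzma* lies alone at chr13:113093991-113094050, and the others at chr14:56259503-56259562 (*Gzmb*), chr14:56129759-56129818 (*Gzmd*) and chr14:56117810-56117869 (*Gzme*).
Gzma: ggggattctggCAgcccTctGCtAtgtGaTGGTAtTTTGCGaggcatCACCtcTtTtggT
Gzmb: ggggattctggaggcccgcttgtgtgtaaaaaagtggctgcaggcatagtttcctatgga
Gzmd: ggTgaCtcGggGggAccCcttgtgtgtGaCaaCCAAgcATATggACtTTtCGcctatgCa
Gzme: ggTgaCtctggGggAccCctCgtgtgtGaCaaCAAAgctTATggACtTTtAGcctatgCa
*Gzma* differed from *Gzmb* at 25 of the 60 bases, while *Gzmd* and *Gzme* differed from each other at 5. Over the whole coding sequence *Gzma* and *Gzmb* were 51.1% identical, *Gzmb* and *Gzmd* 64.7%, and *Gzmd* and *Gzme* 93.3%. Every stretch of 50 bases in the transcripts of *Gzma*, *Gzmb*, *Prf1*, *Ncr1*, *Klrk1*, *Klrd1*, *Nkg7* and *Fasl* was absent from the transcripts of other genes. Of the 50-base stretches of *Klrb1c*, 18.2% recurred in another gene, mainly in the predicted gene Gm44511 and in the neighbors *Klrb1a* and *Klrb1b*, and of those of *Eomes* 2.36% recurred. The counts of *Klrb1c* and, to a smaller part, of *Eomes* are therefore uncertain. They were fractional in 4 of the 6 tumors for *Klrb1c* and in all 6 for *Eomes*, and *Prf1*, with no shared stretch, had 1 fractional count.

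The 4 receptor genes of the list had between 0 and 13 counts per tumor. *Ncr1* encodes NKp46, an activating receptor that defines NK cells and related innate lymphocytes in mice (NCBI Gene 17086, chromosome 7, 4337715 to 4345184 on GRCm38). It had 6, 6 and 8 counts in the control tumors and 1, 10 and 4 in the test tumors. The control tumors were alike, and the test tumors held both the lowest and the highest value of the 6. The group means were 0.732 ± 0.107 CPM in control and 0.587 ± 0.57 CPM in test tumors (SD, n = 3 each). The log2 fold change was -0.34 (95% interval -2.52 to 1.84) when all genes were fitted without a filter on low counts. *Klrd1*, which encodes CD94, the partner of the NKG2 receptors (NCBI Gene 16643, chromosome 6, 129588092 to 129598775), had 3, 3 and 4 counts in the control tumors and 2, 7 and 2 in the test tumors. Its highest value was again in test replicate 2, and its log2 fold change was 0.20 (95% interval -2.06 to 2.47).

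*Klrk1* encodes NKG2D, the activating receptor for stress-induced ligands (NCBI Gene 27007, chromosome 6, 129610323 to 129623903). Its counts were 12, 5 and 1 in the control tumors and 6, 3 and 13 in the test tumors. Both groups thus spanned the range, with high values in control replicate 1 and test replicate 3 and a log2 fold change of 0.27 (95% interval -2.05 to 2.58). *Klrb1c* encodes NK1.1, the receptor used to stain NK cells in C57BL/6 mice (NCBI Gene 17059, chromosome 6, 128778485 to 128788641). Its expected counts were 2.10, 1.28 and 11.97 in the control tumors and 0, 2 and 9.97 in the test tumors, so that replicate 3 of each group held most of the reads. The zero in test replicate 1 allows up to 3 counts, and the log2 fold change was -0.29 (95% interval -3.36 to 2.77). BALB/c mice lack the NK1.1 form that the common antibody binds, and the reads were aligned to a reference built from C57BL/6 mice; the effect of that on this count was not tested. Summed over the 4 receptors, the control tumors had 23, 15 and 25 counts and the test tumors 9, 22 and 29.

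**Figure D1:**
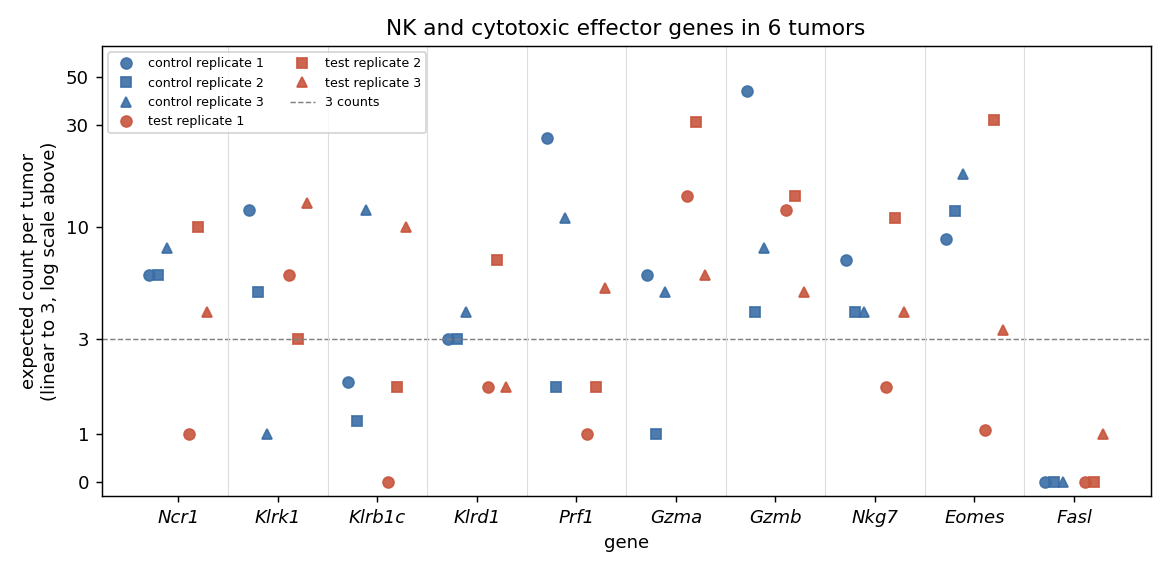
Expected counts (y axis, linear up to 3 and logarithmic above) of the 10 genes (x axis) in each tumor, blue for control and red for test, with marker shapes for replicates 1, 2 and 3 and a dashed line at 3 counts. The 2 groups overlap for every gene, test replicate 2 is highest for 5 genes, and *Fasl* has 1 read in all.

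Among the genes of the killing machinery, *Gzma* had the largest excess in test tumors. It encodes granzyme A, an abundant tryptase of NK cell and T cell granules (NCBI Gene 14938, chromosome 13, 113093824 to 113100981). Counts were 6, 1 and 5 in the control tumors and 14, 31 and 6 in the test tumors. Test replicate 3 overlapped the control tumors, and a test tumor exceeded a control tumor in 8 of the 9 pairs. The means were 0.445 ± 0.303 CPM in control and 2.01 ± 1.61 CPM in test tumors (SD, n = 3 each). The log2 fold change was 2.12 (standard error 0.96, 95% interval -0.04 to 4.29, p = 0.0536, adjusted p = 0.63, edgeR's quasi-likelihood test without a filter), and p was 0.2 in the exact two-sided permutation test. A comparison of 3 tumors with 3 cannot give a permutation p below 0.1. Test replicate 2 alone carried 49.2% of all *Gzma* reads. On the log2(CPM + 0.5) scale of the permutation tests the difference between the group means was 1.26 with all 6 tumors, 0.77 without test replicate 2 and 0.97 without control replicate 2, which had 1 read.

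*Prf1* went the other way. It encodes perforin, without which granzymes do not reach the inside of the target cell (NCBI Gene 18646, chromosome 10, 61297751 to 61304684). Counts were 26, 2 and 11 in the control tumors and 1, 2 and 5.22 in the test tumors. Control replicate 2 lay within the range of the test tumors, and control replicate 1 carried 55.1% of all reads. Means were 1.47 ± 1.42 CPM in control and 0.304 ± 0.225 CPM in test tumors (SD, n = 3 each). The log2 fold change without a filter was -2.24 (standard error 1.10, 95% interval -4.72 to 0.25, p = 0.072, adjusted p = 0.661, edgeR's quasi-likelihood test), and p was 0.3 in the exact two-sided permutation test. Without control replicate 2 the log2 fold change was -2.74 with an unadjusted p of 0.0192 and an adjusted p of 0.23 in the same test. On the log2(CPM + 0.5) scale the difference was -1.04 with all 6 tumors and -0.48 without control replicate 1.

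*Gzmb* encodes granzyme B, the protease that activates caspases in the target cell, and is also made by mouse mast cells (NCBI Gene 14939, chromosome 14, 56258836 to 56262334). It had 43, 4 and 8 counts in the control tumors and 12, 14 and 5 in the test tumors, and it was the only one of the 10 genes above 3 counts in every tumor. Control replicate 1 had more reads than the other control tumors and any test tumor, while control replicates 2 and 3 lay below test replicates 1 and 2. *Gzmb* was 1 of the 2 genes that passed the filter on low counts, with a log2 fold change of -0.78 (standard error 0.96, 95% interval -3.01 to 1.45, adjusted p = 0.836). Without control replicate 1 it turned to 0.88. A test tumor exceeded a control tumor in 5 of 9 pairs. Of the mast cell and basophil genes, the mast cell protease *Cma1* had 0, 3 and 4 counts in the control tumors and 19, 24 and 8 in the test tumors, without overlap. *Tpsb2* had 7, 4 and 2 counts in the control tumors and 10, 29 and 3 in the test tumors, and *Cpa3* 2, 0 and 1 against 7, 16 and 1. These proteases were highest in test replicate 2, as *Gzma* was, and at 0 to 7 counts in control replicate 1, where *Gzmb* was highest. *Hdc*, of the same list, went the other way, with 69, 6 and 21 counts in the control tumors and 9, 1 and 11 in the test tumors. Its highest value was in control replicate 1, as that of *Gzmb* was. *Mcpt4* had 2, 3 and 9 counts against 1, 31 and 7, and *Gata2* a log2 fold change of -0.01. *Mcpt8*, *Fcer1a* and *Ms4a2* had at most 2 counts in any tumor. The summed 10 genes of the list, at 148 to 269 CPM in control and 175 to 507 CPM in test tumors, were mostly *Kit*, which other cells also express. The part of mast cells in the granzyme levels was not tested.

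*Nkg7*, a membrane protein of cytotoxic granules that takes part in their release (NCBI Gene 72310, chromosome 7, 43437138 to 43438246), had 7, 4 and 4 counts in the control tumors and 2, 11 and 4 in the test tumors. As for *Ncr1*, test replicates 1 and 2 were the lowest and the highest of the 6, and the log2 fold change was 0.23 (95% interval -1.93 to 2.39). *Fasl*, the Fas ligand (NCBI Gene 14103, chromosome 1, 161780691 to 161788495), had 1 read in test replicate 3 and 0 in the other 5 tumors, at or under the floor of 3 counts in every tumor, so no fold change is given. *Eomes*, the T-box factor that NK cells need to mature (NCBI Gene 13813, chromosome 9, 118478186 to 118486132), had 8.8, 11.87 and 17.6 counts in the control tumors and 1.1, 31.59 and 3.31 in the test tumors. The control tumors lay between the extremes of the test tumors. *Eomes* passed the filter with a log2 fold change of 0.01 (standard error 1.11, 95% interval -2.57 to 2.59, adjusted p = 0.998). This value rests on test replicate 2, which carried 42.5% of the reads: without it the log2 fold change was -2.62, with an unadjusted p of 0.0214 and an adjusted p of 0.586 in edgeR's quasi-likelihood test.

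Over the 10 genes, 2 passed the filter on low counts and 0 were called at a false discovery rate of 0.05, where 0% of the 13706 tested genes were called. Neither had an unadjusted p under 0.05, a threshold that 3.15% of tested genes passed upward and 5.26% downward. Without the filter 0 of the 10 passed it, against 8.04% of 18436 genes. Leaving out *Fasl*, test tumors were higher for 4 of 9 genes and lower for 5, with a median log2 fold change of -0.01, against 0.03 for all genes, and with *Fasl* included the median was 0.10. The groups separated for 0 of the 10 genes, where every test tumor lay above every control tumor for 5.57% of all listed genes and every control tumor above every test tumor for 5.1%. The lowest permutation p among the 10 was 0.2. A Poisson test on reads pooled within each group, which takes no account of the spread between tumors, called 69.9% of tested genes and 1 of the 2 members it was run on, *Gzmb* (adjusted p = 0.0259). The pooled *Gzma* ratio, test over control, was 4.41 (95% counting interval 2.32 to 9.09), that of *Prf1* 0.213 (0.0859 to 0.462) and that of *Gzmb* 0.585 (0.364 to 0.924), so that counting error alone left each of these 3 apart from 1. In edgeR's quasi-likelihood test of all 6 tumors, which uses the spread between tumors, the 95% interval of each of the 3 included no change.

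**Figure D2:**
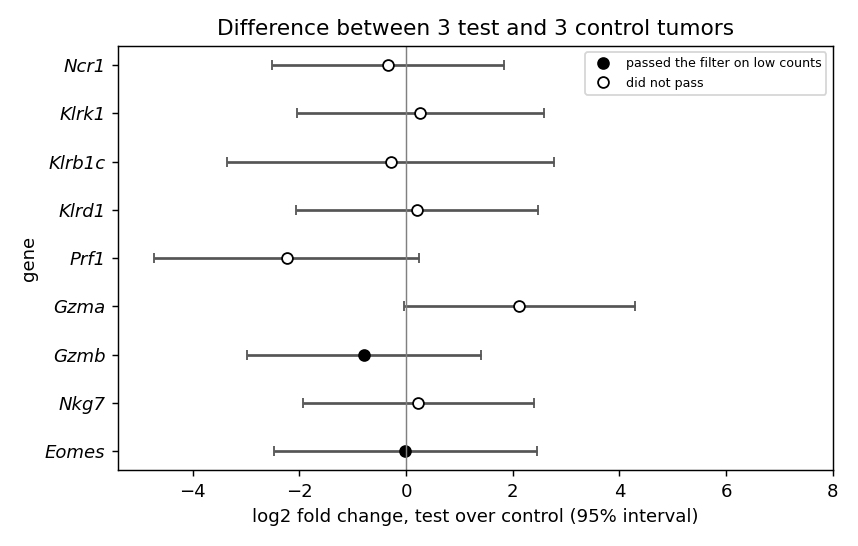
Log2 fold change of test over control tumors (x axis) with its 95% interval for 9 genes (y axis), from the fit of all genes without a filter on low counts; filled circles passed that filter. Every interval includes 0, with *Prf1* at -2.24 and *Gzma* at 2.12 farthest from it, and *Fasl* is not drawn.

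Much of the spread between tumors of a group was larger than counting error. The sum of squared deviations from the group's rate, divided by the expected count and by the degrees of freedom, is 1 when tumors differ by counting alone. It was 15.2 for *Gzmb*, 14.1 for *Eomes*, 7.0 for *Prf1* and 6.71 for *Gzma*. Among the receptors it was 6.32 for *Klrb1c* and 4.3 for *Klrk1*. For *Klrd1*, *Ncr1* and *Nkg7* it was 1.39 to 2.68. Of the 60 values, 23 were at or under 3 counts and 6 were 0. Test replicate 2 held the highest value of *Ncr1*, *Klrd1*, *Gzma*, *Nkg7* and *Eomes*, and control replicate 1 that of *Prf1*, *Gzmb* and *Klrk1* on the CPM scale. Test replicate 1 held the lowest value of *Ncr1*, *Klrb1c*, *Prf1*, *Nkg7* and *Eomes*. No single tumor thus led for all genes, and the tumors that were most often lowest and most often highest were both test tumors.

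The summed killing genes (*Prf1*, *Gzma*, *Gzmb*, *Nkg7* and *Fasl*) had 82, 11 and 28 counts in the control tumors and 29, 58 and 21 in the test tumors. All 10 genes together had 114, 38 and 71 counts in the control tumors and 39, 112 and 54 in the test tumors, so that the highest tumors of both groups were level (exact Poisson intervals 94.0 to 137 and 92.2 to 135). Set against *Ptprc*, the 10 genes came to 29.8%, 23.3% and 22.1% of the *Ptprc* CPM in the control tumors and 39.5%, 80.9% and 18.9% in the test tumors. Test replicates 1 and 2, the tumors with the fewest *Ptprc* reads, exceeded the control tumors on this scale, and test replicate 3 lay below them. As a share of the 8 pan-leukocyte genes, the 10 genes came to 4.21%, 2.34% and 2.23% in the control tumors and 3.64%, 5.91% and 2.36% in the test tumors. The mean log2 ratio to *Ptprc* was higher in test tumors by 0.66, with a range from 0.14 (without test replicate 2) to 1.19 (without test replicate 3) when 1 tumor was left out, 0.40 against the pan-leukocyte genes, and a standard deviation of 0.76 within groups.

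**Figure D3:**
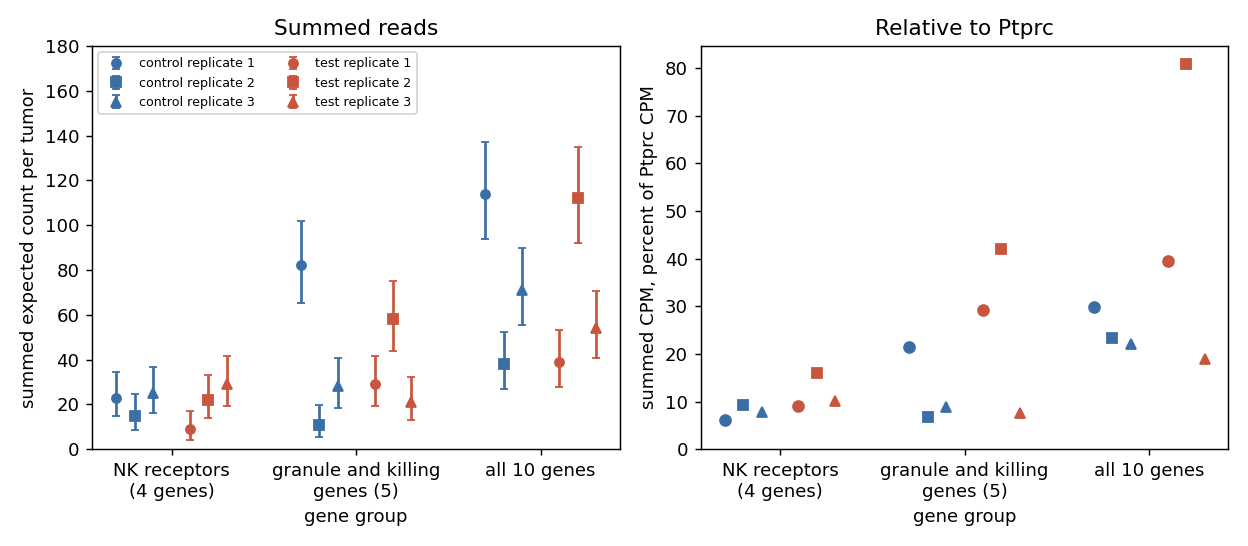
Left, summed expected counts per tumor (y axis) of the NK receptors, of the killing genes and of all 10 genes (x axis), with exact 95% Poisson intervals; right, summed CPM as a percent of *Ptprc* CPM. Control replicate 1 and test replicate 2 are level for all 10 genes at 114 and 112 counts, and relative to *Ptprc* test replicate 2 stands highest at 80.9%.

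By FPKM, which divides reads by gene length and depth and so allows genes to be compared, the order of the means over the 6 tumors was *Gzma* at 1.4 ± 1.5, *Gzmb* at 1.14 ± 1.12, *Nkg7* at 0.755 ± 0.470, *Klrd1* at 0.465 ± 0.261, *Ncr1* at 0.448 ± 0.249, *Prf1* at 0.418 ± 0.505, *Eomes* at 0.375 ± 0.348, *Klrk1* at 0.230 ± 0.161, *Klrb1c* at 0.188 ± 0.208 and *Fasl* at 0.0100 ± 0.0245 (SD, n = 6). *Gzma* stood above 33.3% of the listed genes and *Fasl* above 1.31%. Only *Nkg7* and *Klrd1* were ordered alike in all 6 tumors (exact paired permutation test, two-sided, p = 0.0312), which is the smallest p that 6 tumors allow and which Benjamini-Hochberg adjustment over the 9 neighboring pairs raised to 0.281. *Nkg7* exceeded *Klrd1* by a mean of 0.54 ± 0.43 and *Klrb1c* exceeded *Fasl* by 1.11 ± 0.90 on the log2(FPKM + 0.1) scale (SD, n = 6). For the other 7 pairs the mean difference was smaller than its standard deviation. For scale, *Ptprc* ran from 2.23 to 7.78 FPKM and *Cd4* from 0.35 to 1.24 FPKM over the tumors.

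Genes of T cells were also sparse. *Cd3e*, a subunit of the T cell receptor complex, had 4, 1 and 7 counts in the control tumors and 3, 1 and 5 in the test tumors. *Cd4* had 19, 16 and 35 counts in the control tumors and 9, 13 and 18 in the test tumors (log2 fold change -0.75, adjusted p = 0.75). *Cd8a*, of cytotoxic T cells and some dendritic cells, had 1, 4 and 4 counts in the control tumors and 13, 4 and 12 in the test tumors, although the mice received CD4+ T cells alone. The 9 genes of the T cell receptor complex and CD4 summed to 12.1 to 14.8 CPM in control and 12.7 to 18.1 CPM in test tumors. The largest part of the sum in every tumor was 1 gene, *Cd247*. It was at 6.48, 6.38 and 6.61 CPM in the control tumors and 12.9, 7.81 and 5.73 CPM in the test tumors. *Cd8a* in all 3 test tumors exceeded the control tumors in CPM, narrowly so in test replicate 2 (exact permutation test, two-sided, p = 0.1, the smallest possible). The summed CD8 T cell genes, *Cd8a* and *Cd8b1*, were at 0.156 to 0.613 CPM in control and 1.27 to 1.96 CPM in test tumors. On its own *Cd8b1* overlapped between the groups (exact permutation test, two-sided, p = 0.4). Its expected counts were 0.35, 1.67 and 1.4 in the control tumors and 4, 7.63 and 0 in the test tumors. Test replicates 1, 2 and 3 had 14, 31 and 6 reads of *Gzma* beside 13, 4 and 12 of *Cd8a*. Both *Gzma* and *Cd8b1* were highest in test replicate 2 and *Cd8a* in test replicate 1. The part of CD8+ cells in the *Gzma* level was not tested.

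The rest of the cytotoxic pathway was read from 8 lists with 113 genes, of which 96 were listed in at least 1 tumor and 59 passed the filter. None was called at a false discovery rate of 0.05, and test tumors were higher for 24 and lower for 35, with a median log2 fold change of -0.11 against 0.02 for all tested genes. At an unadjusted p under 0.05 there was 1 higher and there were 4 lower, which is 5 of 59 genes, beside 3.15% of all tested genes higher and 5.26% lower: *Serpinb6a* on the one hand and *Rab27a*, *Srgn*, *Zeb2* and *Il12rb1* on the other. The groups did not overlap for 11 of the 96 genes, 6 higher and 5 lower in test tumors, beside 5.57% and 5.1% of all listed genes.

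Among those 5, *Rab27a* and *Srgn* belong to the granule genes and *Serpinb6a* to the inhibitors of granule proteases. *Rab27a*, the small GTPase that docks granules at the membrane and also acts in other secreting cells, had 1589, 1702 and 1074 counts in the control tumors and 530.2, 278.2 and 209.4 in the test tumors. The groups did not overlap, and the log2 fold change was -2.04 (adjusted p = 0.394, edgeR's quasi-likelihood test). *Srgn*, the proteoglycan that packs granule proteins and is made by many cell types, had a log2 fold change of -3.36 (adjusted p = 0.473), from 353 to 12139 counts in control and 331 to 789 in test tumors. *Serpinb6a*, an inhibitor of serine proteases, was at 431 to 621 counts in control and 746 to 1323 in test tumors without overlap (log2 fold change 0.97, adjusted p = 0.475, edgeR's quasi-likelihood test). *Unc13d*, which primes granules for release, had the largest increase among the granule genes (log2 fold change 0.88, adjusted p = 0.806), with 338 counts in test replicate 3 and 31 to 144 in the others. Of the 16 tested genes on the granule list 5 were higher and 11 lower, with a median of -0.26.

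The granzymes encoded near *Gzmb* on chromosome 14 had higher mean levels than *Gzma* or *Gzmb* per length, at 7.01 FPKM for *Gzmc*, 3.59 for *Gzmd*, 1.61 for *Gzme*, 4.61 for *Gzmf* and 2.48 for *Gzmg* over the 6 tumors. These means rest on a few tumors, and *Gzme* and *Gzmg* exceeded *Gzma* in FPKM in control replicates 1 and 2 alone. *Gzmc* had 102.35, 67.06 and 20.01 expected counts in the control tumors and 1.33, 120.6 and 33 in the test tumors. *Gzmd* had 100.38, 14.07 and 17.17 in the control tumors and 2.67, 43.12 and 1 in the test tumors. Both were high in control replicate 1 and test replicate 2 and near the floor in test replicate 1. The split between these genes is uncertain, since 19.4% to 21.9% of the 50-base stretches of *Gzmd*, *Gzme*, *Gzmf* and *Gzmg* recur in another gene, against 4.14% for *Gzmc*. Their sum does not depend on the split among them, although some stretches of *Gzme*, *Gzmf* and *Gzmg* also recur in *Gzmn* or the predicted gene Gm4022. *Gzmc* to *Gzmg* together had 448, 140 and 57 counts in the control tumors and 11, 254 and 44 in the test tumors. *Gzma* and *Gzmb* together had 49, 5 and 13 counts in the control tumors and 26, 45 and 11 in the test tumors. Test replicate 1 was the one tumor with more reads of *Gzma* and *Gzmb* than of the other 5 granzymes. *Gzmg* had an unadjusted p of 0.0372 without the filter, which it did not pass, with 97.71 of its 125 reads in control replicate 1.

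**Figure D4:**
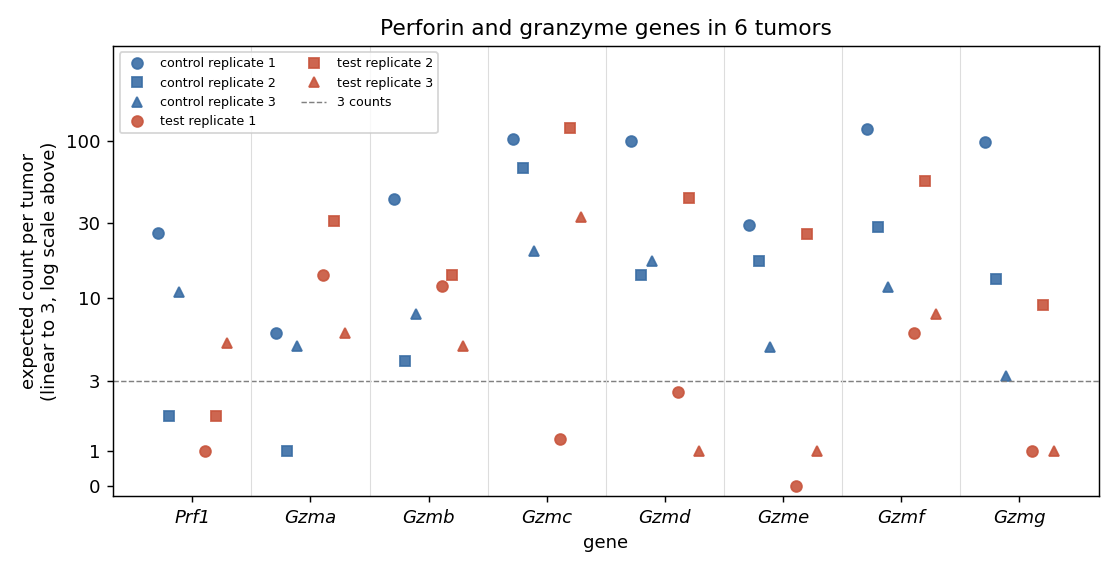
Expected counts (y axis, linear up to 3 and logarithmic above) of *Prf1* and 7 granzyme genes (x axis) in each tumor, blue for control and red for test, with a dashed line at 3 counts. *Gzmc* to *Gzmg* reach about 100 counts in control replicate 1 except for *Gzme*, and lie at 6 counts or fewer in test replicate 1, where *Gzma* has 14 and *Gzmb* 12.

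Of the transcription factors, *Tbx21*, the T-bet gene that acts beside *Eomes* in NK cells and in Th1 cells, had 4, 2 and 2 counts in the control tumors and 0, 1 and 0 in the test tumors. Every control tumor exceeded every test tumor, but only 1 value was above the floor of 3 counts. *Zeb2*, a late maturation factor of NK cells that is also expressed in myeloid and stromal cells, had 520, 150 and 616 counts in the control tumors and 187, 128 and 128 in the test tumors (log2 fold change -1.48, adjusted p = 0.491, edgeR's quasi-likelihood test). *Id2*, needed by all innate lymphocytes and expressed in epithelium, showed the largest increase of the list at a log2 fold change of 0.41 (adjusted p = 0.732). One of the 5 tested factors was higher and 4 were lower, with a median of -0.07.

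Among cytokines and receptors, *Il12rb1*, a subunit of the receptors for IL-12 and IL-23, had 69, 14 and 17 counts in the control tumors and 3, 5 and 3 in the test tumors. The groups did not overlap, and the log2 fold change was -3.11 (adjusted p = 0.425, edgeR's quasi-likelihood test). *Il15*, the survival cytokine of NK cells, had 23, 14 and 26 counts in the control tumors and 30, 24 and 25 in the test tumors (log2 fold change 0.38, adjusted p = 0.841). *Il18r1*, for IL-18, had the largest increase of the list at 0.61 (adjusted p = 0.801), and of the 8 tested genes 5 were higher and 3 lower. *Ifng*, the main cytokine of NK and Th1 cells, had 1 read in control replicate 1 and 0 in the other 5 tumors. *Tnf* (log2 fold change 0.56) and the chemokine *Ccl3* (-1.46) bounded the 4 tested death ligands and effector cytokines, of which 2 were higher and 2 lower.

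Of the remaining receptors, 4 of 9 activating receptors and adaptors were tested, with *Tyrobp*, the adaptor DAP12 that myeloid cells share, at a log2 fold change of 0.24 and *Cd244a*, the receptor 2B4, at -1.27 (adjusted p = 0.907 and 0.76). Some receptor genes near the floor separated upward, namely *Cd160* with 0, 1 and 2 counts in the control tumors and 4, 4 and 5 in the test tumors, *Crtam* with 1, 0 and 0 against 2, 6 and 2, and *Klrb1a*, which shares stretches with *Klrb1c*. The NK gene complex on chromosome 6 was sparse: 8 of its 23 other lectin-like receptor genes were listed in no tumor, and *Klri2* (0.68) and *Klrb1b* (-0.01) were the 2 tested. As for *Klrb1c*, the effect of aligning reads of BALB/c mice to a C57BL/6 reference on these genes was not tested. On the receiving side, 14 death receptor, caspase and inhibitor genes were tested, 6 higher and 8 lower. *Fas*, the receptor for Fas ligand, had 242, 36 and 202 counts in the control tumors and 83, 69 and 13 in the test tumors (log2 fold change -1.46, adjusted p = 0.699). *Dffb*, the nuclease that cuts DNA in apoptosis, had 9, 25 and 25.79 counts in the control tumors and 50.62, 30.98 and 38.22 in the test tumors (log2 fold change 1.06, adjusted p = 0.658). *Fas* transcripts were thus present in every tumor while those of its ligand were at the floor. Of the ligands of NK receptors 3 of 6 tested genes were higher and 3 lower, from *Cadm1* at -0.29 to *Clec2d* at 0.70.

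The 5 genes most like the 2 filtered members were found by correlation over the 6 tumors with the mean of the centered log2(CPM + 0.5) of *Gzmb* and *Eomes*, a profile high in test replicate 2 (0.90) and control replicate 1 (0.80) and low in test replicates 1 and 3 (-0.61 and -0.83). Among 13704 other genes these were *Ifnar2* (Pearson r = 0.991), *Clec4a1* (0.990), *Itgb7* (0.989), *Ift74* (0.985) and 2700081O15Rik (0.983). Being the highest of that many, the coefficients carry no test. *Ifnar2*, a subunit of the type I interferon receptor, was at 112, 75.7 and 91.6 CPM in the control tumors and 76.1, 120 and 65.4 CPM in the test tumors.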

How the data were processed

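RNA sequencing of 3 test and 3 control tumors was analyzed, grouped by the labels. The study's methods state that mm10 was the genome, and the submitters' processing notes name Bowtie, BWA and RSEM. The counting step and the strand setting are not given in the sources used here. The authors deposited for each gene an expected count, not normalized, and an FPKM, normalized by the authors for gene length and depth. Genes not listed for a tumor were set to 0. NCBI Gene identifiers were matched to RefSeq on GRCm38.p6 (18400 of 18460).

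Expected counts were rounded and fitted over all genes in R 4.3.3 with edgeR 4.0.16 (filterByExpr, TMM, quasi-likelihood test, Benjamini-Hochberg adjustment, no covariate). Adjusted p values in the text are from this fit unless another is named. The standard error is the log2 fold change over the square root of F. CPM uses TMM library sizes. Permutation tests were exact and two-sided, on log2(CPM + 0.5). Neighboring genes were compared on log2(FPKM + 0.1). P values take the spread between mice into account, except those of the pooled Poisson test. Alternatives were DESeq2 1.42.0, RLE scaling, limma 3.58.1 on log2(FPKM + 1) and log2(FPKM + 0.1) (with and without a minimum mean FPKM of 1), other filters, a replicate block, a pooled Poisson test, and leaving out each tumor. The fits were tested on simulated data. Sequences are from GENCODE M21 transcripts on GRCm38, matched by RefSeq transcript, and shared stretches of 50 bases were sought on both strands.

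Named were the 10 genes, per pathway list the largest rise and fall and every gene with an unadjusted p under 0.05, *Ptprc*, *Cd3e*, *Cd4*, *Cd8a*, *Ifng*, *Tbx21*, *Srgn*, *Il15*, and the 5 genes most like *Gzmb* and *Eomes*. The allele genes *Tslp* and *Rag1*, the granzymes *Gzmc* to *Gzmg*, *Cd8b1*, the mast cell genes, *Cd160*, *Crtam* and *Klrb1a* were named after values were seen. So were *Glycam1*, *Ccl21a*, *Ccl19*, *Madcam1* and *Cd247*. The genes and lists were chosen with earlier results of these data known.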

Additional observations from a re-analysis of the deposited data

How the results depend on the processing

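In edgeR's quasi-likelihood test 0 of 13706 genes were called, with 432 higher and 721 lower at an unadjusted p under 0.05. DESeq2 called 344, limma on log2(FPKM + 1) 1, the pooled Poisson test 9583, and leaving out 1 tumor 0 to 182, with 182 without control replicate 2 and none of them a member. Members called were 0 in every replicated alternative that tested any, and 1 in the Poisson test. Members with an unadjusted p under 0.05 were 0, against 1 each with DESeq2 and limma without a filter (*Gzma* in both), 1 in the Poisson test (*Gzmb*), and 0 to 1 when 1 tumor was left out (*Prf1* without control replicate 2, *Eomes* without test replicate 2 and *Gzma* without test replicate 3). Members higher in test tumors were 1 of 2 tested, against 5 of 10 without a filter and with limma without a filter. They were 6 of 10 with DESeq2 and 0 of 2 in the Poisson test. With 1 tumor left out they were 1 to 2 of the 3 to 5 members tested. No member reached 10 counts in all tumors, so that filter left none to test.

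The log2 fold change of *Eomes* was 0.01 and turned to -0.01 without a filter, -0.07 with limma without a filter and -0.07 in the Poisson test, with -2.62 to 0.56 when 1 tumor was left out and negative values without control replicate 1 (-0.17), control replicate 2 (-0.05) or test replicate 2. That of *Gzmb* was -0.78 and ran from -1.26 to 0.88, the latter without control replicate 1. The difference in mean log2(CPM + 0.5) turned with a pseudocount of 0.1 for *Klrd1* and *Nkg7* (-0.01 each). When 1 tumor was left out it ran from -0.70 to 0.04 for *Ncr1*, from -0.17 to 0.65 for *Klrk1*, from -0.63 to 0.28 for *Klrb1c*, from -0.26 to 0.20 for *Klrd1*, from -0.74 to 0.53 for *Gzmb*, from -0.34 to 0.32 for *Nkg7* and from -1.35 to 0.05 for *Eomes*. It turned without test replicate 1 for *Ncr1*, *Klrb1c* and *Eomes*, without test replicate 2 for *Klrd1* and *Nkg7*, without test replicate 3 for *Klrk1* and *Gzmb*, without control replicate 1 for *Gzmb*, without control replicate 2 for *Nkg7*, and without control replicate 3 for *Klrk1*, *Klrb1c* and *Nkg7*. The cause was not tested. *Gzma* stayed higher and *Prf1* lower in test tumors in every setting that gave them a value. The depth of 8373390 to 9449565 counts leaves levels under 0.318 to 0.366 CPM beyond reach.

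The replicate numbers are shared by the groups but come from different mice. Deviations from the group means of same-numbered tumors correlated at -0.032, 0.1 and -0.139 over 13706 genes, and no test tumor correlated best with the control tumor of its own number except test replicate 2. With the replicate block *Eomes* was at -1.05, 0 of the 2 tested members were higher, 0 genes and 0 members were called.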
